A study of Mus musculus with 23 samples.

Results

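Simple-epithelial keratins are the intermediate-filament proteins of single-layered epithelia, and the 5 genes described here, Krt7, Krt8, Krt18, Krt19 and Krt20, were picked by gene symbol from the 55573 genes of the count files. All 5 were found. They had been proposed because they differed between SET knockout and wild-type embryonic stem cells (ESCs), so that their difference in that comparison is given as a description and with no test. The counts came from 3′ tag sequencing (QuantSeq) of polyadenylated RNA of mouse ESC cultures, in which a transcript gives about the same number of tags whatever its length. Levels are CPM, tag counts scaled to a common library total, with a correction for library composition, and are compared between samples and not between genes.

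SET is a histone chaperone and an inhibitor of the phosphatase PP2A, and the series asks how it bears on the differentiation of ESCs. Line R1 was studied as SET knockout (KO, genotype SET-/-, lines KO1 and KO2) and as wild type (WT) in 2 separately titled sets. Set 1 held 2 KO1, 2 KO2 and 2 WT samples. Set 2 held 2 KO samples and 1 WT sample treated with retinoic acid (RA) for 4 d, and 2 KO1, 2 KO2 and 2 WT samples without it. Both RA-treated KO samples were titled KO1, but the deposited file of 1 of them (2i) carries the line code that the KO2 files of set 2 carry, so that it may be KO2. The other samples of set 2 are coded 2h (RA-treated KO), 2g (RA-treated WT), 2c and 2d (KO1), 2e and 2f (KO2) and 2a and 2b (WT). The titles were followed, and RA-treated KO cells were set against the mean of untreated KO1 and KO2. Cells of line KH2, which carried SETa-HA under a doxycycline-inducible promoter and were not labelled as SET knockout, were sampled with 1 μg/mL doxycycline (Dox) for 24 h and without it, 2 samples each. Both lines were grown on mouse embryonic fibroblast feeders with serum and LIF. The labels do not say whether KO1 and KO2 are each 1 clone, and the line codes of the deposited files differ between the sets, so that KO1 and KO2 of set 1 may not be those of set 2.

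Set 1 was the shallowest, with 806412 to 1445013 assigned counts a sample, against 2833064 to 10217040 in set 2 without RA, 3904924 to 5047363 with it, and 4848478 to 6472695 for KH2. The targeted gene, Set, had 17.3 to 25.9 CPM in the KO and 976.5 and 1020 CPM in the WT samples of set 1. In untreated set 2 it had 272 to 562 CPM in the KO and 1190 and 1400 CPM in the WT samples, so that the KO samples of that set kept more Set tags than those of set 1. Its RA-treated level was 185 and 270.5 CPM in KO and 558 CPM in WT, and KH2 cells had 1120 and 1263 CPM with Dox and 955 and 1016 CPM without. Separate cultures are not named by the labels, so the spread behind each p-value may be a technical one. In these cultures fewer cells of a type and less RNA per cell cannot be told apart.

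Keratin filaments are built from pairs of 1 type I and 1 type II chain, and a chain without a partner is unstable. Krt7 and Krt8 encode type II chains, and Krt18, Krt19 and Krt20 type I chains. Krt8 and Krt18 encode the first keratins of the mouse embryo, made in trophectoderm and in extraembryonic endoderm, and are a classic readout of the differentiation of embryonal carcinoma and stem cells. Krt19 is found in many simple and ductal epithelia, Krt7 in ductal and glandular epithelia, bladder and mesothelium, and Krt20 in gut epithelium, urothelium and Merkel cells.

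On GRCm38 the type II genes lie on chromosome 15, Krt7 (ENSMUSG00000023039) at chr15:101411043-101430313 on the plus strand and Krt8 (ENSMUSG00000049382) at chr15:101996698-102004482 on the minus strand. Krt18 (ENSMUSG00000023043), although a type I gene, lies beside Krt8 at chr15:102028180-102032027 on the plus strand. The other type I genes lie on chromosome 11, Krt19 (ENSMUSG00000020911) at chr11:100140810-100148665 and Krt20 (ENSMUSG00000035775) at chr11:99428403-99438150, both on the minus strand. Among GENCODE mouse transcripts, a set separate from the annotation of the count files, no other transcript matched the last 400 bases of any of the 5 genes. Matches were sought at 95% identity over 100 bases or more, and the genome outside annotated transcripts was not searched. In the annotation of the count files, Krt7 overlaps Gm671 on the other strand, which had 0 counts in all libraries. Krt8 overlaps Gm36026, which had 4. Over all libraries Krt18 had 6672 counts, Krt8 4047, Krt19 1761, Krt7 715 and Krt20 325, which sets how finely each could be measured.

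The promoters are shown because the genes moved together after RA. RefSeq (GRCm38.p6) gave the 250 bases upstream of the start site for 4 of the 5 genes, Krt8 (chr15:102004343-102004592, minus strand), Krt7 (chr15:101412153-101412402, plus strand), Krt18 (chr15:102027966-102028215, plus strand) and Krt20 (chr11:99438154-99438403, minus strand). These RefSeq start sites differ from the gene starts in the annotation of the count files. By the coordinates given above, the Krt7 window lies inside the Krt7 gene, and the Krt8 and Krt18 windows overlap the starts of their genes. Distances to a start site refer to the RefSeq one. Capitals mark the matches to the motifs named in the next paragraph, on either strand.
Krt8: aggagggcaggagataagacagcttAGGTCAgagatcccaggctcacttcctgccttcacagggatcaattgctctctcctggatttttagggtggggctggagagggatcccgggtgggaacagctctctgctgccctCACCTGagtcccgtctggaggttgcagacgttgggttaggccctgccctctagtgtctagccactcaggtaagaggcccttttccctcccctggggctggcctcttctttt
Krt7: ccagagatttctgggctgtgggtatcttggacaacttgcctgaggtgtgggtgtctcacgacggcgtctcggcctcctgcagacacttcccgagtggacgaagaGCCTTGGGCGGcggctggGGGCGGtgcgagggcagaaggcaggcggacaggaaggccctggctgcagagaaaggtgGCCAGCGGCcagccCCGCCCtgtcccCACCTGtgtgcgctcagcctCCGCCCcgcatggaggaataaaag
Krt18: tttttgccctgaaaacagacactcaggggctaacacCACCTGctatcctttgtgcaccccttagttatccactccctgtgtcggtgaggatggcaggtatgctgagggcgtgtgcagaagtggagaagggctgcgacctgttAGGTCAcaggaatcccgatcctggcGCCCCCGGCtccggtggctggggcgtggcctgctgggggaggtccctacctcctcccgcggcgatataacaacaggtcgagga
Krt20: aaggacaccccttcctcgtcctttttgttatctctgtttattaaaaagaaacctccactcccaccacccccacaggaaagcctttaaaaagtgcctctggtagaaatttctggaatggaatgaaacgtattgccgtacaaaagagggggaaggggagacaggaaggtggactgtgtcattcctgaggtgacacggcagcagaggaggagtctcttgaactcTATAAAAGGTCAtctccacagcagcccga

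The hexamer AGGTCA, the half-site that retinoic acid receptors and other nuclear receptors bind, occurred in Krt8 (225 bases before the start site), Krt18 (108 bases) and Krt20 (23 bases), and in 14.0% of the 32851 RefSeq promoter windows of that length. In Krt20 it directly followed the TATA box, TATAAA, which began 29 bases before the start and occurs in 12.4% of windows. The E-box CAGGTG (17.2% of windows) occurred in Krt8, Krt7 and Krt18. The AP-2 motif GCCNNNGGC (13.7%) occurred in Krt18 and at 2 places in Krt7, and the GC box GGGCGG (32.7%) at 4 places in Krt7, 1 of them overlapping an AP-2 match. The AP-1 motif TGANTCA (6.75%), the TCF/LEF core CTTTGA (13.8%) and the p53 half-site (7.13%) had no match in these 4 windows. These matches describe the letters of the windows and not binding.

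In set 1 the keratins stood apart between KO and WT. Krt18 had 106 and 169 CPM in KO1, 155 and 175 CPM in KO2, and 7.52 and 11.2 CPM in WT. Krt8 had 62.0 and 69.3 CPM in KO1, 68.3 and 66.9 CPM in KO2, and 4.18 and 6.89 CPM in WT. Every KO sample was thus far above both WT samples for each gene of the Krt8 and Krt18 pair, and their log2 fold changes, KO over WT, were 3.58 (SE 0.30) and 4.02 (SE 0.30). Krt19, a type I chain that lacks most of the tail domain, had 40.9 and 37.4 CPM in KO1, 58.4 and 48.6 CPM in KO2, and 8.35 and 5.17 CPM in WT, a log2 fold change of 2.76 (SE 0.35). The other genes were near the limit of this set. Krt7 had 36 counts over the KO samples and 1 count over the WT samples, a depth-corrected ratio of 16.6 with a 95% counting interval of 2.80 to 674. Krt20 had 11 counts over the KO samples and 0 over the WT samples, at least 1.69-fold higher in KO with 3 counts over the group taken as the limit of a count of 0. The low-count filter kept 3 of the 5 genes here, and counting intervals and limits cover counting error only.

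In untreated set 2 the KO samples were again above the WT samples for Krt8, Krt7, Krt18 and Krt19, with smaller fitted fold changes than in set 1 for the 3 genes fitted in both, a difference that was not tested. Krt8 had 51.7 and 53.3 CPM in KO1, 57.6 and 33.4 CPM in KO2, and 20.7 and 22.6 CPM in WT (log2 fold change 1.19, SE 0.19). Krt18 had 82.6 and 53.6 CPM in KO1, 73.6 and 52.2 CPM in KO2, and 28.4 and 25.7 CPM in WT (1.29, SE 0.19). Krt19 had 16.2 and 14.9 CPM in KO1, 21.7 and 14.2 CPM in KO2, and 3.23 and 4.27 CPM in WT (2.11, SE 0.28). For these genes the KO and WT ranges did not overlap, and Krt19 had the largest fitted change of the 4 genes that passed the filter in this set. Krt7 had 3.69 and 6.13 CPM in KO1, 3.31 and 2.98 CPM in KO2, and 1.61 and 1.35 CPM in WT (1.52, SE 0.48). Krt20 had 0.369 and 0.557 CPM in KO1, 1.47 and 1.65 CPM in KO2, and 0.969 and 0.417 CPM in WT, so that its groups overlapped. Every KO sample lay above every WT sample for 5 of 5 keratins in set 1, where 15.1% of genes did so, and for 4 of 5 in set 2, where 14.6% did, and nothing is read from these counts because the genes were chosen on this comparison. Mean levels of Krt8 were 66.6 CPM in KO and 5.53 CPM in WT in set 1, and 49.0 CPM in KO and 21.6 CPM in WT in set 2. Those of Krt18 were 151 CPM in KO and 9.36 CPM in WT in set 1, and 65.5 CPM in KO and 27.1 CPM in WT in set 2. For Krt19 both genotypes were lower in set 2, at 46.3 CPM in KO and 6.76 CPM in WT in set 1, and 16.8 CPM in KO and 3.75 CPM in WT in set 2. The sets differ in Set level and in depth too, and the part of these was not tested.

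**Figure D1:**
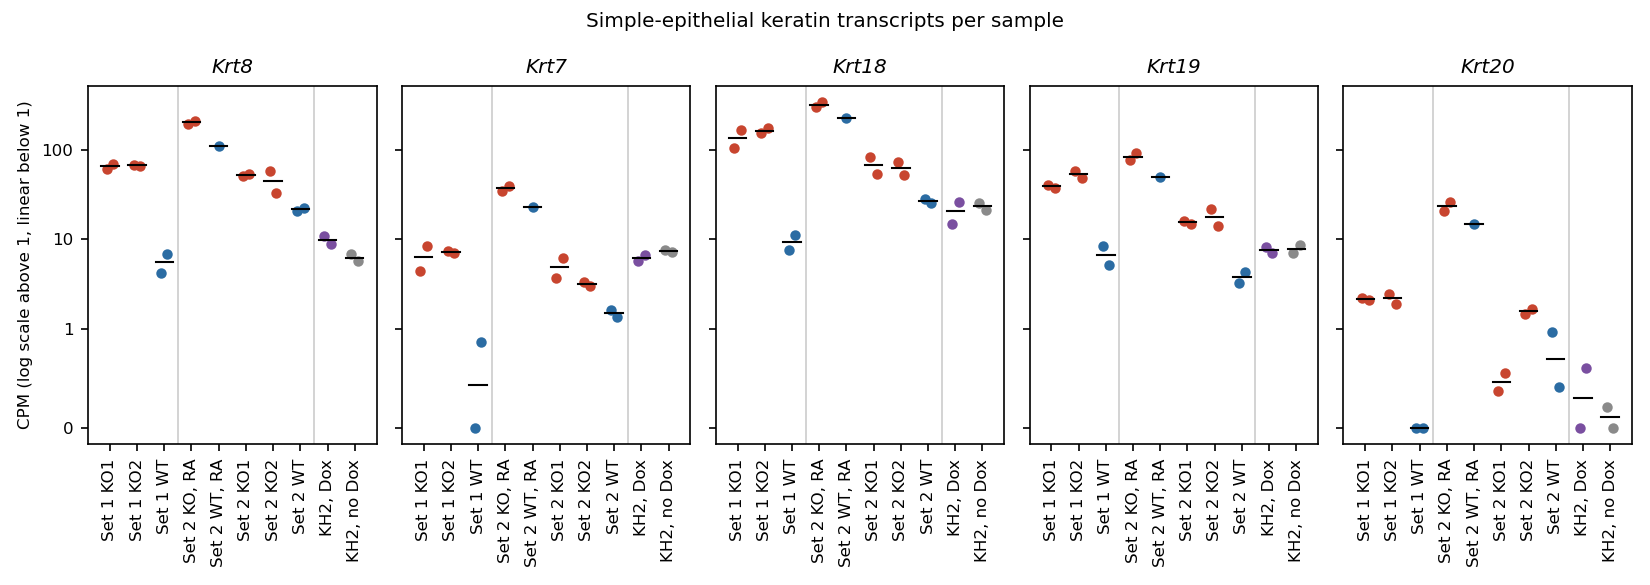
Level of each keratin in each sample (points, CPM, log scale above 1 and linear below 1) with the group mean (line), for set 1, set 2 and KH2 cells from left to right. KO samples lie above WT samples of the same set and treatment for Krt8, Krt7, Krt18 and Krt19, and the RA samples are the highest for Krt8, Krt7, Krt18 and Krt20.

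The lines KO1 and KO2 were set against each other with edgeR's quasi-likelihood test, adjusted by Benjamini-Hochberg over all genes tested. No keratin was called at an adjusted p of 0.05 among 3 tested in set 1, where 0.0102% of all genes were called, or among 5 tested in set 2, where 0% were. DESeq2 called 0 in each set as well. In set 1 the log2 differences, KO2 minus KO1, were 0.06 for Krt8 (SE 0.23), 0.27 for Krt18 (SE 0.22) and 0.47 for Krt19 (SE 0.26), and none had an unadjusted p under 0.05. In set 2 Krt20 had 8 and 5 counts in KO2 and 1 and 3 counts in KO1. Its log2 difference was 1.59, with an unadjusted p of 0.0440 and an adjusted p of 0.796 by edgeR. The set 2 model included the RA samples, and Krt20 passed its low-count filter only through them.

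The set 2 libraries fell into 2 groups that the titles do not name. Along the first principal component of the 10 untreated libraries the largest gap left 5 libraries on each side, called library group A and library group B here. The 2 libraries of each of the samples 2a, 2b, 2d and 2e, which carry the same title code, fell 1 in A and 1 in B, and each group held KO1, KO2 and WT libraries. The sum of the 5 keratins was 92.9 to 106.0 CPM in the KO libraries of A, against 49.9 and 53.03 CPM in its WT libraries, and 148 to 172 CPM in the KO libraries of B, against 58.1 and 55.8 CPM in its WT libraries. KO1 sample 2d shows the shift within 1 title code, with Krt8 at 40.7 CPM in A and 60.2 CPM in B and Krt19 at 6.71 CPM in A and 19.7 CPM in B. The KO over WT log2 fold change was 0.84 in A and 1.43 in B for Krt8, 0.97 in A and 1.32 in B for Krt18, and 1.49 in A and 2.37 in B for Krt19. In both library groups every KO library lay above both WT libraries for Krt8, Krt7, Krt18 and Krt19. Nothing is read from this order, because the genes were chosen on this comparison. It is no repeat either, since samples 2a, 2b, 2d and 2e gave a library to each group. The share of all genes that do so was not counted.

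**Figure D2:**
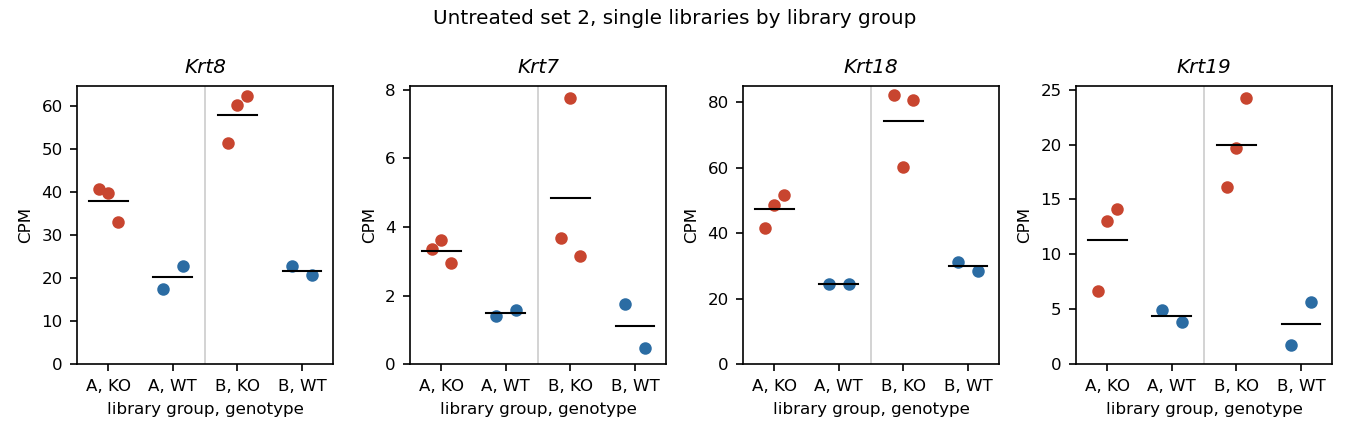
Krt8, Krt7, Krt18 and Krt19 in the 10 untreated set 2 libraries (points, CPM), by library group A or B and genotype, with group means (lines). KO libraries lie above WT libraries in both groups, with the larger gap in group B, where Krt8 had 51.4 to 62.5 CPM in KO and 22.9 and 20.6 CPM in WT.

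All 5 keratins were higher after RA than in untreated cells in both genotypes. No sample is labelled as cultured for 4 d without RA, so RA and time in culture cannot be told apart. The RA libraries were not placed in library group A or B. The RA effects named below are differences between these samples. After 4 d of RA Krt20 stood at 20.7 and 26.4 CPM in KO cells, against 0.369 to 1.65 CPM in untreated KO cells, and at 14.9 CPM in WT cells, against 0.969 and 0.417 CPM in untreated WT cells. Its log2 fold changes were the largest of the 5 genes, at 4.67 in KO (SE 0.34, edgeR adjusted p = 3.44e-12) and 4.66 in WT (SE 0.51, adjusted p = 1.79e-08). These levels rest on 104 and 125 counts in RA-treated KO and 57 counts in RA-treated WT, against 1 to 8 counts in each untreated sample. Krt20 did not pass the low-count filter in untreated set 2 and entered this model only through its RA samples. Its place among the genes tested thus already depended on its level after RA. Krt7 stood at 34.9 and 39.9 CPM in RA-treated KO and 23.3 CPM in RA-treated WT, with log2 fold changes of 3.16 in KO (SE 0.23, adjusted p = 3.90e-12) and 3.99 in WT (SE 0.38, adjusted p = 1.63e-09). Krt8 stood at 194 and 212 CPM in RA-treated KO and 109.7 CPM in RA-treated WT, with log2 fold changes of 2.00 in KO (SE 0.13, adjusted p = 2.17e-12) and 2.31 in WT (SE 0.21, adjusted p = 9.14e-10). Its partner Krt18 stood at 299 and 342 CPM in RA-treated KO and 230.1 CPM in RA-treated WT, the highest levels of the gene in the series, with log2 fold changes of 2.26 in KO (SE 0.14, adjusted p = 1.95e-12) and 3.09 in WT (SE 0.20, adjusted p = 1.93e-11). Krt19 stood at 76.9 and 91.7 CPM in RA-treated KO and 50.0 CPM in RA-treated WT, with log2 fold changes of 2.28 in KO (SE 0.16, adjusted p = 2.09e-12) and 3.63 in WT (SE 0.28, adjusted p = 1.73e-11).

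The 5 of 5 calls are read against the share of all genes called higher after RA, 28.3% in KO, where 26.8% were lower and 55.1% called in all, and 24.8% in WT, where 47.3% were called in all. The untreated samples of these comparisons also served to choose the genes. Krt20 is among the 5 although it passed the filter only through its RA samples. The WT comparison rests on 1 RA sample that is assumed to vary like the other set 2 samples. All 5 genes were called by DESeq2 as well, and with either library group alone as the untreated control. The list of fibroblast markers was higher after RA too. Its summed level was 10400 and 12390 CPM in RA-treated KO and 10420 CPM in RA-treated WT, against 1868 to 2875 CPM in untreated KO and 1312 and 1599 CPM in untreated WT, and the part of these transcripts in the keratin result was not tested.

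The other keratin genes did not all move the same way after RA. Of 49 other keratin genes in the files, 11 had 0 counts and 10 had at least 20 counts over all samples. The filter kept 4 in the set 2 model with the RA samples, Krt15 only through those samples. Krt15, a type I keratin of basal epithelial cells, rose after RA in KO, at a mean of 10.1 CPM against 0.978 CPM untreated (log2 fold change 3.35, edgeR adjusted p = 4.70e-07), and in WT, at 6.81 CPM against 0.417 CPM untreated (3.42, adjusted p = 0.000172). Krt17 and Krt42 fell after RA in both genotypes, Krt42 by 4.51 on the log2 scale in KO (adjusted p = 1.40e-06) and by 2.60 in WT (adjusted p = 0.00373). In KO against WT of untreated cells, 0 of 2 other keratins tested in set 1 and 0 of 3 in set 2 passed (edgeR). None had an unadjusted p under 0.05. Of all genes 12.3% passed in set 1 and 9.19% in set 2, so so few genes say little.

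After RA both KO samples lay above the 1 WT sample for all 5 keratins, with fitted log2 differences of 0.46 to 0.87. Of these genes, Krt20 had overlapping KO and WT ranges without RA. The order of 2 samples against 1 was not counted over all genes, and nothing is read from it. The log2 fold change, KO over WT, was 0.87 for Krt8 (SE 0.20), and this gene passed the test (edgeR adjusted p = 0.0438). It was 0.73 for Krt19 (SE 0.22, adjusted p = 0.284), 0.66 for Krt7 (SE 0.29, adjusted p = 0.675), 0.64 for Krt20 (SE 0.35, adjusted p = 0.847) and 0.46 for Krt18 (SE 0.19, adjusted p = 0.660). So 1 of 5 was called, where 0.287% of all genes were called higher and 0.109% lower, and 4 of 5 had an unadjusted p under 0.05. The Krt8 call was lost under several alternatives. Its adjusted p was 0.0884 in DESeq2, 0.758 with libraries left unsummed, and 0.0567, 0.0662, 0.0648, 0.0716, 0.160 and 0.444 without sample 2a, 2b, 2c, 2d, 2h and 2i, each left out alone.

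The size of the RA effect itself was compared between KO and WT. Krt19 responded less in KO, by a log2 difference of -1.35 (SE 0.33, edgeR adjusted p = 0.0413), the 1 keratin called, where 0.744% of all genes were called lower and 1.09% in all. Krt18 differed by -0.83 (SE 0.25, adjusted p = 0.136), Krt7 by -0.84 (SE 0.49, adjusted p = 0.564), Krt8 by -0.31 (SE 0.25, adjusted p = 0.737) and Krt20 by 0.02 (adjusted p = 1.00). The untreated samples that chose the genes enter this difference. For Krt19 the adjusted p was 0.105 in DESeq2, 0.679 with libraries left unsummed and 0.0967 with KO1 alone as the untreated KO control, a control that would not match sample 2i if that sample is KO2. Without sample 2a, 2b, 2c, 2d, 2e, 2h and 2i, each left out alone, it was 0.117, 0.216, 0.0677, 0.0525, 0.0750, 0.213 and 0.0942. With the untreated libraries of group A as the control the Krt19 difference was -0.52 (adjusted p = 0.650), and with those of group B -1.67 (adjusted p = 0.0120). Krt18 was called as well with group B (adjusted p = 0.00755), without sample 2d (0.0318) and without sample 2f (0.0155).

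**Figure D3:**
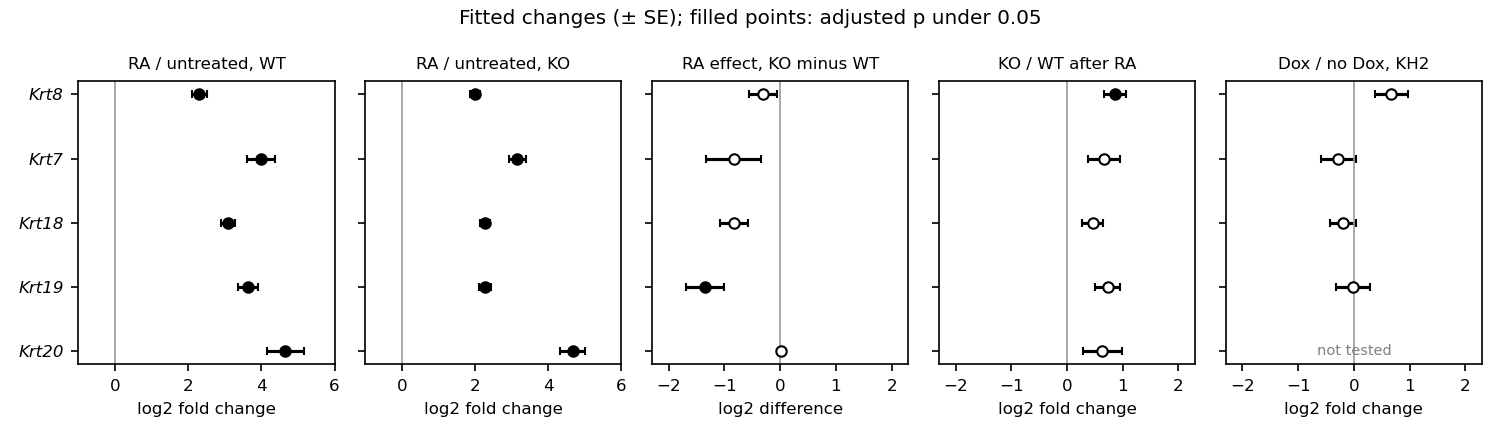
Fitted log2 changes of the 5 keratins (points) with their standard errors (bars) for 5 comparisons, filled where the edgeR adjusted p is under 0.05. All 5 are filled for RA in either genotype, 1 (Krt8) for KO over WT after RA, 1 (Krt19) for the difference of the RA effects, and none for Dox. Krt20 has no bar in the third panel because its standard error could not be computed.

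In KH2 cells Dox called no keratin. Krt8 had 11.01 and 8.88 CPM with Dox and 6.82 and 5.70 CPM without, a log2 fold change of 0.67 (SE 0.30) with an unadjusted p of 0.0314 and an edgeR adjusted p of 0.267, so that it was not called although the samples did not overlap. Krt18 had 14.9 and 26.4 CPM with Dox and 25.4 and 21.3 CPM without (log2 fold change -0.19, SE 0.23). Krt19 had 8.26 and 7.06 CPM with Dox and 7.03 and 8.55 CPM without (-0.01, SE 0.30), and Krt7 had 5.67 and 6.66 CPM with Dox and 7.67 and 7.23 CPM without (-0.28, SE 0.32). Krt20 had 3 counts over the samples with Dox and 1 count over those without, a depth-corrected ratio of 2.49 with a 95% counting interval of 0.200 to 131, and was not tested. The edgeR test called 0 of 4 keratins, 1 of them with an unadjusted p under 0.05, where 0.896% of all genes were called higher and 0.904% lower, 1.8% in all, and DESeq2 gave none of the 4 an adjusted p.

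Across the 10 groups the order of levels was similar for the keratins, with RA-treated KO highest in each. For Krt8 the order ran from RA-treated KO (mean 203 CPM) through RA-treated WT (109.7 CPM), the set 1 KO lines (67.6 CPM in KO2 and 65.6 CPM in KO1), the set 2 KO lines (52.5 CPM in KO1 and 45.5 CPM in KO2) and set 2 WT (21.6 CPM) to KH2 with Dox (9.95 CPM), KH2 without Dox (6.26 CPM) and set 1 WT (5.53 CPM). The 2 KO lines of a set overlapped in that order, and so did KH2 without Dox and set 1 WT. Krt19 departs from it, since its mean in set 1 KO2 cells (53.5 CPM) was above RA-treated WT (50.0 CPM) and its lowest level was in set 2 WT (3.75 CPM). Krt7 departs at the low end, since KH2 cells without Dox (7.45 CPM) stood with the set 1 KO lines (7.17 CPM in KO2 and 6.37 CPM in KO1), with overlapping ranges.

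The balance of the 2 keratin types, summed tags of Krt7 and Krt8 over those of Krt18, Krt19 and Krt20, is given as a description. It had a geometric mean of 0.522 in the 3 RA samples (0.451 to 0.577) and 0.665 in the 6 untreated set 2 samples (0.534 to 0.860), and the ranges overlapped. In set 1 it was 0.371 in KO (0.328 to 0.444) and 0.353 in WT (0.263 and 0.474). Krt8 tags over Krt18 tags were 0.739 and 0.336 in KH2 cells with Dox and 0.269 and 0.268 without, which follows from the higher Krt8 counts with Dox and, in 1 sample, from a lower Krt18 count.

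The genes whose group means most resembled each keratin were ranked by the root-mean-square difference of centred log2(CPM + 1) values over the 10 groups, among 10277 genes. Nearest to Krt8 were Wnt4 (0.37) and Wnt3 (0.41), which encode secreted signalling ligands, Prickle1 (0.38), a planar polarity protein, Samd4 (0.41), an RNA-binding protein, and Slco3a1 (0.42), a membrane transporter. Krt18 itself came 7th in that ranking, at 0.43. Nearest to Krt18 were Thbs1 (0.32), a secreted matrix glycoprotein, Tpm1 (0.36), an actin-binding tropomyosin, Tgfb1i1 (0.40), a focal adhesion adaptor, Phldb2 (0.40), and the transcription factor Twist2 (0.42). Nearest to Krt19 were Clu (0.34), a secreted chaperone, F3 (0.37), tissue factor, the desmosomal cadherin Dsc2 (0.42), Anxa1 (0.42), a membrane-binding annexin, and Tinagl1 (0.44), a matrix protein. Thbs1, for example, had mean levels of 101 and 108 CPM in the set 1 KO lines against 8.99 CPM in WT, and 251 CPM in RA-treated KO against 218 CPM in RA-treated WT.

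Desmosomes anchor keratin filaments at cell contacts, and their genes moved in part with the keratins. Of 17 desmosome, plakin and keratin-binding genes tested in KO against WT, 4 were higher and 0 lower in set 1 (edgeR, 7.19% of all genes higher and 5.1% lower), with a median log2 fold change of 0.50 against -0.02 for all genes, and 3 were higher and 0 lower in set 2 (5.64% of all genes higher and 3.55% lower, 9.19% in all; median 0.15 against 0.01). Dsp, which encodes desmoplakin, the plaque protein that binds keratins, averaged 106 CPM in KO and 25.8 CPM in WT in set 1 (log2 fold change 2.03, adjusted p = 2.39e-05) and 103 CPM in KO and 53.8 CPM in WT in set 2 (0.98, adjusted p = 0.000334). Perp, a desmosomal membrane protein, rose in KO in both sets, by 1.63 in set 1 (adjusted p = 0.000106) and 0.87 in set 2 (adjusted p = 0.000768) on the log2 scale. After RA 11 of 17 were higher and 1 lower in KO, beside 28.3% of all genes higher and 26.8% lower. In WT 8 were higher and 3 lower after RA, beside 24.8% of all genes higher and 22.5% lower. Dsp reached 311 CPM in RA-treated KO and 248 CPM in RA-treated WT, and Dsc2, a desmosomal cadherin, 26.6 CPM in RA-treated KO and 21.5 CPM in RA-treated WT. In KO against WT after RA 0 of the 17 passed (edgeR), 3 of them with an unadjusted p under 0.05. Only 0.396% of all genes were called there, so nothing is read from the count of 0.

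Adhesion and tight junction genes were called in both directions after RA, at shares close to those over all genes. In KO against WT 8 of 22 tested were higher and 0 lower in set 1, beside 7.19% of all genes higher and 5.1% lower. In set 2 8 of 24 were higher and 0 lower, beside 5.64% higher and 3.55% lower. Among them in both sets was Cldn6, a claudin of early epithelia. It averaged 112 CPM in KO and 38.8 CPM in WT in set 1 (log2 fold change 1.53, edgeR adjusted p = 0.000697). After RA 9 of 26 rose and 8 fell in KO, where 28.3% of all genes rose and 26.8% fell, and 8 rose and 6 fell in WT, where 24.8% of all genes rose and 22.5% fell. The junction protein F11r rose in both genotypes, to 1273 CPM in RA-treated KO against 229 CPM untreated, and to 1168 CPM in RA-treated WT against 201 CPM untreated. Epcam, an epithelial adhesion molecule that ESCs express, fell to 82.7 CPM in RA-treated KO against 311 CPM untreated (log2 fold change -1.94, adjusted p = 1.00e-13), and to 46.6 CPM in RA-treated WT against 251 CPM untreated (-2.45, adjusted p = 9.36e-12). So keratin tags rose in the same RA samples in which Epcam and the splicing factor Esrp1 fell. After RA Cldn6 (1.04, edgeR adjusted p = 0.00434) and Epcam (0.81, edgeR adjusted p = 0.0303) were higher in KO than in WT. They were 2 of 26 tested, beside 0.287% of all genes called higher.

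Among the other intermediate filaments, Vim (vimentin) rose after RA to 837 CPM in KO against 131 CPM untreated and to 1006 CPM in WT against 128 CPM untreated (log2 fold changes 2.64 in KO and 2.94 in WT), together with Nes (nestin), while the neurofilament gene Nefh fell. In KO against WT, 4 of 13 were higher and 0 lower in set 1, beside 7.19% of all genes higher and 5.1% lower. In set 2 3 of 15 were higher and 2 lower, beside 5.64% higher and 3.55% lower. Nefm, a neurofilament chain, averaged 46.2 CPM in KO and 3.80 CPM in WT in set 1 (3.58, adjusted p = 1.01e-05) and 24.1 CPM in KO and 3.34 CPM in WT in set 2 (2.89, adjusted p = 1.79e-05). Vim was not among the genes called in either set, at 182 CPM in KO and 166 CPM in WT in set 1.

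Transcription factors known from epithelia changed in both directions. In KO against WT the AP-1 genes Fosl2 (log2 fold change 2.66 in set 1 and 0.99 in set 2) and Jun (2.19 in set 1 and 0.78 in set 2) were higher, and Klf4, a factor of both ESCs and epithelia, was lower (-1.56 in set 1 and -1.14 in set 2). After RA, Gata3, a factor of trophectoderm and of several epithelia, rose to 66.8 CPM in KO against 5.96 CPM untreated and to 62.0 CPM in WT against 4.51 CPM untreated, while Tfap2c fell to 42.2 CPM in KO against 289 CPM untreated and to 41.3 CPM in WT against 199.5 CPM untreated. Of 25 tested, 11 rose and 8 fell after RA in each genotype, beside 28.3% of all genes higher and 26.8% lower in KO and 24.8% higher and 22.5% lower in WT.

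Markers of the cell types that make these keratins in the mouse are given beside the result. Of 19 trophectoderm markers, 2 of 7 tested were higher in KO in set 1 (Eomes and Ets2), beside 7.19% of all genes. In set 2 3 of 13 were higher (Cdx2, Dlx3 and Tfap2c), beside 5.64%, with 0 lower in either set. After RA 6 rose and 3 fell in KO, of 15 tested, beside 28.3% of all genes higher and 26.8% lower. In WT 7 of these rose and 2 fell, beside 24.8% higher and 22.5% lower. Elf5 and Prl3d1 had 0 counts in all RA-treated samples, Elf5 and Tpbpa 0 counts in set 1 KO, and Cdx2 averaged 0.899 CPM in KO and 0 CPM in WT in set 1 and 3.99 CPM in KO and 0.261 CPM in WT in set 2. The summed trophectoderm markers were 298 to 333 CPM in KO and 196 and 212 CPM in WT in set 1, 355 and 398 CPM in KO and 407 CPM in WT after RA, and 416 to 508 CPM in KO and 342 and 349 CPM in WT in untreated set 2. In KO this sum was lower in both RA samples than in every untreated sample, and in WT it was higher in the RA sample than in both untreated ones.

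Of 28 markers of primitive and visceral endoderm, 10 of 19 tested were higher and 0 lower in KO against WT in set 1, beside 7.19% of all genes higher, 16 of 22 higher and 0 lower in set 2, beside 5.64%, and 10 of 23 higher and 0 lower after RA, beside 0.287%. Their sum was 2847 to 3704 CPM in KO and 1232 and 1417 CPM in WT in set 1, 7021 and 7045 CPM in KO and 4867 CPM in WT after RA, and 2482 to 2856 CPM in KO and 1551 and 1567 CPM in WT in untreated set 2, so that this list was higher in KO in each of the comparisons in which the keratins were. Lama1, a basement membrane laminin, averaged 98.4 CPM in RA-treated KO and 27.0 CPM in RA-treated WT (log2 fold change 1.85, adjusted p = 8.24e-05), and Gata4, an endoderm transcription factor, 17.2 CPM in RA-treated KO and 2.88 CPM in RA-treated WT (2.55, adjusted p = 0.00478). Of the genes of mature visceral endoderm, Apoa2 and Apob had 0 counts in all RA-treated samples, and Afp and Apoa1 had 0 counts in every set 1 sample. Afp, Apoa1 and Ttr had counts in RA-treated KO and in RA-treated WT. Apoa2 and Ttr had counts in set 1 KO and 0 counts in set 1 WT. In untreated set 2 KO every gene of the list had counts. In set 1 the called genes were Lama1, Lamb1, Lamc1, Col4a1, Col4a2 and Sparc, which encode matrix proteins, and Sox17, Foxa2, Pth1r and Cited1. Gata4, Gata6, Sox7, Pdgfra, Dab2, Cubn, Amn, Lrp2 and Srgn were tested in set 1 and not called. Of the latter, Gata6, Pdgfra, Dab2, Amn, Lrp2 and Srgn were called higher in KO in set 2. The part of endoderm-like cells in the keratin result was not tested.

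Mesothelium makes Krt7, Krt8, Krt18 and Krt19 too. The low-count filter kept 3 of its 7 markers in untreated set 2 and 5 with the RA samples. In KO 3 of 5 rose and 1 fell after RA, beside 28.3% of all genes higher and 26.8% lower. In WT 3 rose and 0 fell, beside 24.8% higher and 22.5% lower. Wt1 rose after RA to 80.3 CPM in KO against 26.7 CPM untreated and to 118 CPM in WT against 21.7 CPM untreated. Lrrn4 was lower in RA-treated KO, at 19.1 CPM, than in RA-treated WT, at 44.2 CPM (-1.23, edgeR adjusted p = 0.0461). It was the 1 of 5 called between these groups, beside 0.109% of all genes lower. The RA effect on Lrrn4, KO minus WT, was -2.57 (edgeR adjusted p = 0.000277). Without RA Lrrn4 was higher in KO, in set 1 (log2 fold change 1.69, edgeR adjusted p = 0.00271) and in set 2 (1.36, edgeR adjusted p = 0.000689). It was the 1 called of 2 tested in set 1 and of 3 tested in set 2, beside 7.19% and 5.64% of all genes higher. Wt1 differed by -0.59 in set 1 and 0.29 in set 2 and was not called. The mesothelial sum was 38.8 to 51.8 CPM in KO and 23.4 and 27.6 CPM in WT in set 1, and 68.3 to 89.6 CPM in KO and 37.5 and 47.7 CPM in WT in untreated set 2. After RA it was 102 and 118 CPM in KO and 178 CPM in WT. The sum was thus higher in KO where cells were untreated, as the keratins were, and lower in KO after RA, where the keratins were higher, and the part of such cells in the keratin result was not tested. Markers of stratified epithelium were few. Trp63, the defining factor of that epithelium, had 0 counts in WT of both sets, in set 1 KO1, in KH2 cells and in RA-treated WT. Trp63 had counts in set 1 KO2, in both KO lines of untreated set 2 and in RA-treated KO. Of 5 tested in set 1, 2 were higher and 1 lower in KO, beside 7.19% of all genes higher and 5.1% lower. In set 2 2 of 7 were higher, beside 5.64%. After RA 3 of 9 rose and 0 fell in KO, beside 28.3% of all genes higher and 26.8% lower. In WT 3 rose and 1 fell, beside 24.8% higher and 22.5% lower.

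Most pluripotency markers were lower where the keratins were higher, in KO against WT without RA and after RA in each genotype. Of 16 tested, 10 were lower and 2 higher in KO against WT in set 1 (median log2 fold change -0.92), and 10 lower and 1 higher in set 2 (median -0.63), beside 5.1% and 3.55% of all genes lower in these sets. Their sum was 3022 to 3215 CPM in KO and 5111 and 5596 CPM in WT in set 1, 870 and 871 CPM in KO and 775 CPM in WT after RA, and 2901 to 3445 CPM in KO and 4475 and 4770 CPM in WT in untreated set 2. Esrrb, a transcription factor of naive ESCs, averaged 97.7 CPM in KO and 272 CPM in WT in set 1 (-1.47, adjusted p = 0.000108). After RA 16 of 16 were lower in each genotype, beside 26.8% of all genes in KO and 22.5% in WT, and Fgf4, a growth factor secreted by ESCs, fell by 3.27 in KO and 4.48 in WT on the log2 scale. In KO against WT after RA 0 of 16 passed (edgeR), 4 of them with an unadjusted p under 0.05. Only 0.396% of all genes passed there, so nothing is read from the count of 0. The part of less pluripotent cells in the keratin result was not tested.

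The feeder layer holds fibroblasts, and transcripts listed as fibroblast markers also differed between the genotypes. Which cells these transcripts came from was not tested. Of 32 fibroblast markers, 12 of 14 tested were higher in KO in set 1, beside 7.19% of all genes. In set 2 7 of 28 were higher, beside 5.64%, with 0 lower in either set. In KO against WT after RA 0 of 29 passed (edgeR, 6 with an unadjusted p under 0.05), where 0.396% of all genes did. With Dox 1 was higher and 8 lower of 29 tested, beside 0.896% of all genes higher and 0.904% lower. Their sum was 1371 to 1775 CPM in KO and 528 and 642 CPM in WT in set 1. In KH2 cells it was 3081 and 3623 CPM with Dox and 3313 and 3443 CPM without, above every untreated R1 sample, and the keratin sum was 39.9 and 49.6 CPM with Dox and 47.1 and 42.7 CPM without. In set 1 KO the keratin sum was 216 to 299 CPM with a fibrillar collagen sum (Col1a1, Col1a2 and Col3a1) of 58.9 to 83.9 CPM, and in set 1 WT the keratin sum was 20.1 and 24.1 CPM with a collagen sum of 15.04 and 6.89 CPM, so that both sums were higher in KO. In KH2 cells the collagen sum was 460.0 and 384 CPM with Dox and 702 and 642 CPM without. After RA the collagen sum was 578 and 614 CPM in KO and 608 CPM in WT, with keratin sums of 626 and 712 CPM in KO and 428 CPM in WT. The part of feeder or other fibroblast-like cells in the keratin result was not tested.

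**Figure D4:**
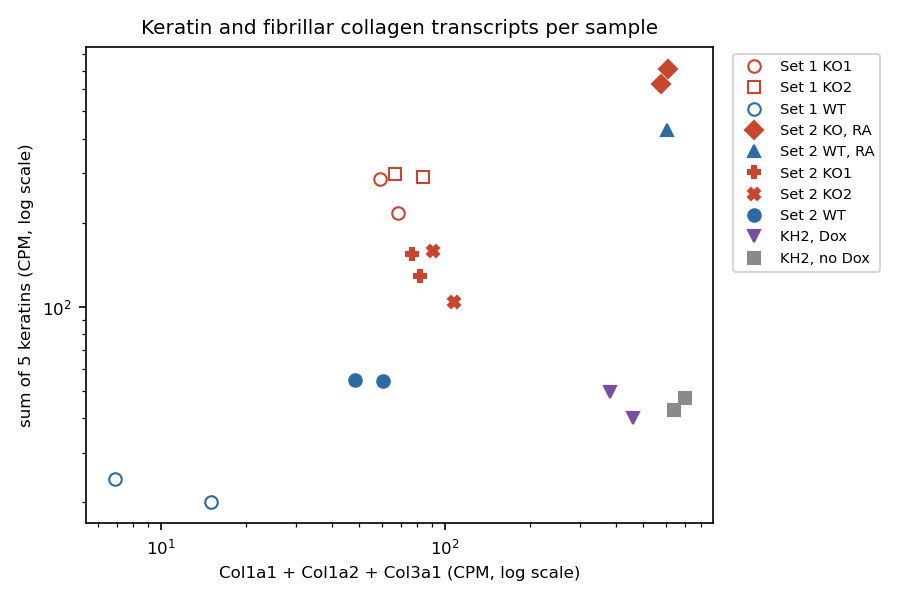
Sum of the 5 keratins against the sum of 3 fibrillar collagens in each sample, both in CPM on log scales. KH2 samples lie at the right with 384 to 702 CPM of collagen and at the bottom with under 50 CPM of keratin, and RA samples lie at the right and top.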

How the data were processed

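The deposited values were raw counts per gene for 23 libraries. Per the file headers they came from featureCounts 1.6.0 with Ensembl 97 gene models (GRCm38). The submitters' processing notes name STAR 2.5.4b and Subread 2.0.0. Libraries were made from 500 ng of RNA, per the labels' protocols. Libraries with the same title code were summed, which left 19 samples. At these depths 3 counts in a sample correspond to 0.313 to 3.32 CPM, and counting intervals cover counting error only.

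Genes were tested by quasi-likelihood in edgeR 4.0.16 under R 4.3.3 (TMM scaling, filterByExpr with minimum count 10 and minimum total 15, robust dispersions) over all genes, with Benjamini-Hochberg adjustment and a threshold of 0.05. RA, KO against WT after RA, and KO2 against KO1 in set 2 shared 1 model over the set 2 samples, with the mean of KO1 and KO2 as the untreated KO control. Alternatives were DESeq2 1.42.0 (size factors or Wald test), no filter, each sample left out, libraries left unsummed, a replicate block, KO1 alone as control and, in part chosen after seeing the data, library groups A and B. On simulated counts with 200 changed genes, the fit recovered 41% of 2-fold changes for RA in WT and 62% for RA in KO. It recovered 48% for KO against WT after RA, 35% for RA by genotype and 69% for Dox. The false share of its calls was 5.65% for RA in WT and 7.79% for RA in KO. It was 4.92% for KO against WT after RA, 9.17% for RA by genotype and 6.71% for Dox.

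The 5 genes and all lists were chosen with earlier results of these data known. Named genes were the 5 keratins, up to 3 called genes per list and comparison with the largest fold change and 10 CPM or more on average in the higher group (a few others were chosen after their values were seen, such as Vim in set 1, Krt17, Krt42, Cdx2, Elf5, Dsc2 after RA and the markers at 0), and the 5 genes nearest to Krt8, Krt18 and Krt19. Trophectoderm and endoderm genes were also named by whether they were called in KO against WT. Motif matches were searched in RefSeq promoter sequences. Copies of 3′ ends were searched among GENCODE transcripts with blastn 2.17.0.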

Additional observations from a re-analysis of the deposited data

Results flagged for a closer look

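The difference in RA effect between KO and WT was called for 1 keratin, Krt19, with a log2 difference of -1.351 (edgeR adjusted p = 0.0413, SE 0.33). Krt19 stood at 76.9 and 91.7 CPM in RA-treated KO, against 14.2 to 21.7 CPM in untreated KO, and at 50.0 CPM in RA-treated WT, against 3.23 and 4.27 CPM in untreated WT. It was higher in KO than in WT both with and without RA. The difference subtracts the untreated KO over WT change, on which the genes were chosen and which, at 2.11, was the largest fitted for a keratin in set 2, so it is not independent of that choice. The call was lost in 7 of 8 fits that left out 1 sample, as given with the result, and its cause was not tested. Each of the 5 keratins was checked for a single sample far from the others among the 4 KO samples of set 1 and the 4 untreated KO samples of set 2, and 0 of these 10 checks found one.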

How the results depend on the processing

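All 5 keratins were called for RA in KO and in WT under every alternative that gave a value. The count of keratins called for KO against WT after RA was 0 with DESeq2's Wald test and with libraries left unsummed, and 0 to 1 when samples were left out. For the difference of the RA effects it was 0 with DESeq2's Wald test, with libraries left unsummed, with KO1 alone as control and with library group A, 2 without the low-count filter and with library group B, and 0 to 2 when samples were left out. Directions turned for small, uncalled log2 differences. In KO2 against KO1 of set 2 these were 0.12 for Krt8 without 2f, 0.25 and 0.14 for Krt18 without 2c and without 2f, and -0.11 for Krt19 without 2e. In the difference of the RA effects they were 0.0395 for Krt8 with library group A, and, for Krt20, -0.40 without 2a, -0.073 without 2c, -0.047 without 2e, -0.15 without 2i and -0.14 with library group B. With Dox they were 0.18 for Krt18 without the first Dox sample, and 0.13 and 0.085 for Krt19 without the second untreated and without the second Dox sample. The causes were not tested, beyond fewer samples where one was left out.

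The replicate numbers were not taken to pair samples: deviations of same-numbered samples correlated at 0.05 (KO1 with WT), -0.15 (KO2 with WT) and -0.08 (KO2 with KO1) in set 1 and 0.06 in KH2 cells. With the replicate number as a block, 0 keratins were called in KO2 against KO1 of either set and with Dox, and Krt8 with Dox stood at 0.67 (edgeR adjusted p = 0.210). No paired analysis was possible for the RA comparisons because the RA samples carry no replicate numbers. Leaving out the single RA-treated WT sample gives no value for the comparisons that use it, and DESeq2's Wald test gave no adjusted p for keratins with Dox. Counts of 0 to 8 per sample limit Krt20 in untreated cells, and counts of 0 to 12 limit Krt7 in set 1.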
